A study of Mus musculus with 11 samples.

Results

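The genes described here are the glucocorticoid receptor, Nr3c1, and 8 genes known to answer to glucocorticoids: Fkbp5, Glcci1, Tsc22d3, Per1, Sgk1, Dusp1, Txnip and Klf9. A probe set was taken as a member where its only gene symbol in the platform annotation was 1 of these 9 names. Each name had 1 such probe set, so the set is 9 of the 21789 single-symbol probe sets, which cover 19938 genes. The set was chosen on the values of Glcci1, whose probe set was far below its normal level in these same arrays. The differences of Glcci1 from normal thymocytes are therefore given as a description, without a test.

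Glucocorticoids enter the cell and bind Nr3c1, which waits in the cytoplasm in a complex with Hsp90 and immunophilins, moves to the nucleus and binds DNA at paired short motifs. Among the genes it switches on are brakes on the signal itself, such as Fkbp5, and inhibitors of inflammatory and growth signalling, such as Tsc22d3 and Dusp1. In the thymus, glucocorticoids kill immature double-positive thymocytes, the stage that carries both CD4 and CD8, and the thymus can also make the hormone locally.

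RNA came from the thymus of FVB mice, with 300 ng of total RNA hybridised to 1 Affymetrix whole-transcript array per sample. Dnmt3b-deficient lymphomas (n = 3) carried EμSR-tTA, Teto-MYC and Teto-Cre together with Rosa26LOXPEGFP and were Dnmt3b-/-. Wild-type lymphomas (n = 3) carried EμSR-tTA, Teto-MYC and Rosa26LOXPEGFP and were Dnmt3bF/F, so they had MYC and floxed Dnmt3b but no Cre. Pre-tumor Dnmt3b-deficient thymocytes (n = 2) had the genotype of the Dnmt3b-deficient lymphomas and were taken at 24 days of age. Normal thymocytes (n = 3), also taken at 24 days, carried EμSR-tTA, Teto-Cre and Rosa26LOXPEGFP, were Dnmt3b+/+ and had no MYC transgene. All 4 groups carry EμSR-tTA, an activator driven in blood cells that switches on the Teto transgenes, and the Rosa26 EGFP reporter that Cre turns on. The labels call the samples of a group biological replicates. Dnmt3b itself had levels of 5.26 to 5.49 in Dnmt3b-deficient lymphomas, 5.36 to 5.70 in wild-type lymphomas, 5.07 and 5.24 in pre-tumor thymocytes, and 5.22 to 5.31 in normal thymocytes. The lymphoma groups overlap, and whether its probes lie inside the deleted part is not known here. The level therefore checks nothing, and the genotypes are those of the labels.

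Several things differ together. Among the tumors, Cre goes with the Dnmt3b genotype. Each MYC group differs from the normal thymocytes in the transgene and in at least 1 of Dnmt3b genotype, stage and Cre, and these cannot be told apart. The labels describe a sort for EGFP+ cells of the pre-tumor thymi, whereas tumors went unsorted into TRIzol, and they do not settle what was done with normal thymi. In bulk RNA, fewer cells of a type and less RNA per cell cannot be told apart.

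The T cell label was checked against 11 T cell markers, none of which sat at the floor of the table on any array. Their mean level was 7.88 to 8.52 in Dnmt3b-deficient lymphomas, 8.59 to 8.86 in wild-type lymphomas, 8.82 and 8.64 in pre-tumor thymocytes, and 9.84 to 9.94 in normal thymocytes, on the log2 scale. Of the 11, 10 fell in Dnmt3b-deficient lymphomas, 9 fell in wild-type lymphomas and 6 fell in pre-tumor thymocytes, so T cell RNA was present but lower than in normal thymocytes. Markers of the double-positive stage were lower too. Of 13 marker genes of that stage, 9 fell in Dnmt3b-deficient lymphomas, 10 fell in wild-type lymphomas and 8 fell in pre-tumor thymocytes, against normal thymocytes. Rag2, which cuts the receptor genes for rearrangement at that stage, sat at the lowest value of the table on all 3 Dnmt3b-deficient and all 3 wild-type lymphoma arrays. Without pre-tumor replicate 2, 1 of the 13 stage markers and 1 of the 11 T cell markers passed in pre-tumor thymocytes.

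All levels below are the deposited log2 values, where 1 unit is a doubling, and a level of 1 probe set is never set against that of another. A difference is the group named first minus the other, from limma fitted to the 4 groups together. A gene is said to have risen or fallen where its p-value, adjusted by Benjamini-Hochberg over 28939 probe sets, was under 0.05. The lowest value of any of the 9 genes on any array was 4.38, above the table's floor of 3.322, so no level here is cut off at the floor. The plot of levels by sample shows every value.

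**Figure D1:**
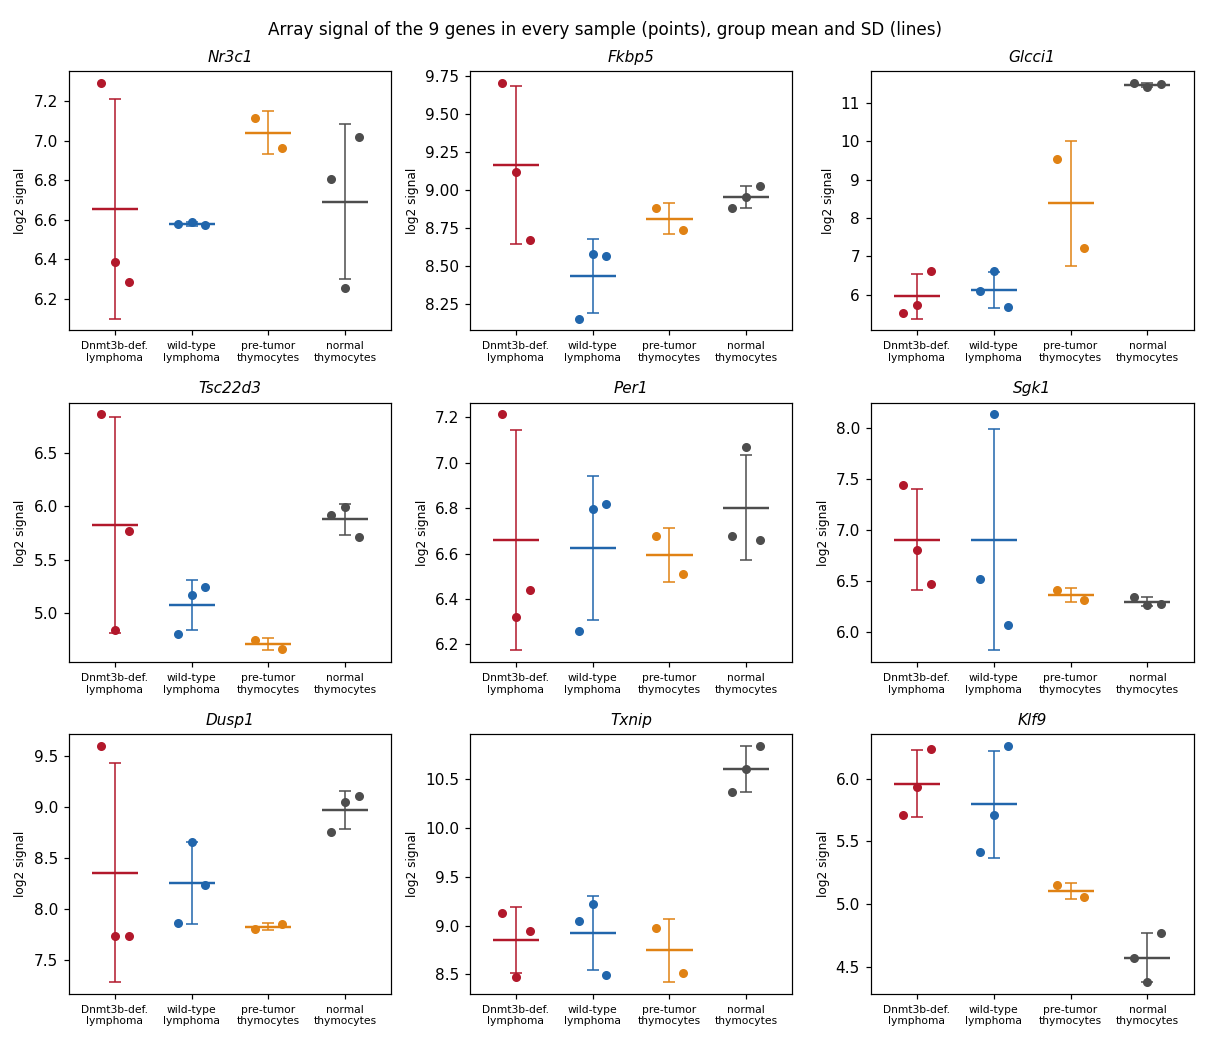
Deposited log2 level (vertical axis) of each of the 9 genes, 1 panel a gene, with 1 point per array, a line at the group mean and bars of 1 SD. The groups run left to right as Dnmt3b-deficient lymphomas, wild-type lymphomas, pre-tumor thymocytes and normal thymocytes (n = 3, 3, 2 and 3). Glcci1 and Txnip stand highest in the 3 normal samples, Klf9 stands lowest in them, and the receptor Nr3c1 overlaps between the normal samples and each other group.

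The first question was how the receptor itself stood. Nr3c1, the hormone-activated transcription factor, had levels of 7.29, 6.39 and 6.29 in Dnmt3b-deficient lymphomas. It had 6.58, 6.59 and 6.57 in wild-type lymphomas, 7.12 and 6.96 in pre-tumor thymocytes, and 6.80, 6.26 and 7.02 in normal thymocytes. Every pair of groups overlapped except pre-tumor thymocytes and wild-type lymphomas, which were not compared by a test. The difference was 0.08 between Dnmt3b-deficient and wild-type lymphomas, with a 95% interval of -0.60 to 0.75. Against normal thymocytes it was -0.04 in Dnmt3b-deficient lymphomas, -0.11 in wild-type lymphomas and 0.35 in pre-tumor thymocytes, with limma adjusted p-values of 1, 0.978 and 0.558. In the order of means, pre-tumor thymocytes at 7.04 ± 0.11 came above normal thymocytes at 6.69 ± 0.39, Dnmt3b-deficient lymphomas at 6.66 ± 0.55 and wild-type lymphomas at 6.58 ± 0.01 (SD, n = 2, 3, 3 and 3). The last 3 of these differ by less than the SD of the normal samples.

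RNA levels of the receptor's chaperone genes did move, while the complex itself was not measured. Hsp90ab1, also on the list, had no single-symbol probe set. Of 12 measured chaperone and immunophilin genes, the comparison of Dnmt3b-deficient lymphomas with normal thymocytes had 5 rises and 2 falls, that of wild-type lymphomas 6 rises and 1 fall, and that of pre-tumor thymocytes 6 rises and 2 falls. Hsp90aa1, the inducible Hsp90 chaperone that holds the receptor ready for hormone, rose by 3.86 in Dnmt3b-deficient lymphomas, by 3.62 in wild-type lymphomas and rose by 3.92 in pre-tumor thymocytes. The limma adjusted p-values were 0.00515, 0.00735 and 0.00977, and the last was 0.0759 without pre-tumor replicate 2 and 0.0919 with only the 2 groups compared. Ppid, an immunophilin of the same complex, rose by 2.42, 2.05 and 2.57 in these 3 comparisons, in that order. Ptges3, the p23 co-chaperone that steadies the bound receptor, rose by 1.46 in Dnmt3b-deficient and by 1.18 in wild-type lymphomas. Dnaja1, an Hsp40 that hands clients to Hsp70, rose by 1.57 in wild-type lymphomas and rose by 1.61 in pre-tumor thymocytes (limma adjusted p = 0.0175 and 0.0253), and each call was kept under 16 of 21 other settings. The median difference over the 12 genes was 0.56 in Dnmt3b-deficient lymphomas, 0.48 in wild-type lymphomas and 0.50 in pre-tumor thymocytes, where the median over all probe sets was 0, 0 and -0.02. The share of all probe sets that passed in the 3 comparisons was 20.2%, 19.9% and 19.6%. Here and below, this share is not split by direction. It also counts probe sets that lie at the floor on every array, which cannot pass. Without pre-tumor replicate 2, 1 chaperone gene passed in pre-tumor thymocytes.

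Among the receptor's co-regulators falls outnumbered rises. Of 14 measured genes, 1 rose and 8 fell in Dnmt3b-deficient lymphomas, 1 rose and 7 fell in wild-type lymphomas, and 2 rose and 5 fell in pre-tumor thymocytes. Of all probe sets 20.2%, 19.9% and 19.6% passed in these comparisons, rises and falls together. That share is not split by direction here, so whether the lean to falls is particular to this list was not tested. Ncoa1, a co-activator that docks on the hormone-bound receptor, fell by 1.15 in Dnmt3b-deficient lymphomas and fell by 1.26 in wild-type lymphomas (limma adjusted p = 0.00256 and 0.00215). Foxo3, a transcription factor of stress and death genes, fell by 1.27 in Dnmt3b-deficient and by 1.18 in wild-type lymphomas. Ets1, a lymphoid transcription factor that works beside the receptor, fell by 1.27 in Dnmt3b-deficient and fell by 1.16 in wild-type lymphomas. Hdac2, a deacetylase used by receptor complexes, rose in all 3 comparisons, by 1.004 in Dnmt3b-deficient lymphomas, by 1.24 in wild-type lymphomas and by 1.51 in pre-tumor thymocytes (limma adjusted p = 0.0370, 0.0170 and 0.0135). The Hdac2 calls were kept under 10, 18 and 18 of 21 other settings, in that order. Foxo3 also fell by 0.92 in pre-tumor thymocytes, a call lost without replicate 2 (limma adjusted p = 0.123). Smarca4, the motor of the chromatin remodeller that opens receptor sites, fell by 0.78 in pre-tumor thymocytes (limma adjusted p = 0.00312). It also fell by 0.79 in Dnmt3b-deficient and by 0.84 in wild-type lymphomas (limma adjusted p = 0.00118 and 0.00116). Without 1 sample the count in pre-tumor thymocytes dropped to 1 (pre-tumor replicate 2), and that in wild-type lymphomas to 5 (wild-type replicate 1). In Dnmt3b-deficient lymphomas it dropped to 5 without normal replicate 2, normal replicate 3 or wild-type lymphoma replicate 1.

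Of 12 measured genes for steroid receptors and local steroid handling, 3 passed in Dnmt3b-deficient lymphomas, 3 in wild-type lymphomas and 1 in pre-tumor thymocytes, beside 20.2%, 19.9% and 19.6% of all probe sets. Hsd11b1, which regenerates active glucocorticoid inside cells, fell by 1.75 in Dnmt3b-deficient lymphomas, by 1.65 in wild-type lymphomas and by 1.53 in pre-tumor thymocytes (limma adjusted p = 0.00135, 0.00199 and 0.00509). Hsd11b1 was at the floor on 1 of 3 Dnmt3b-deficient arrays, so the first of these falls is a lower limit. H6pd, which supplies the cofactor that Hsd11b1 needs, fell by 1.84 in wild-type lymphomas (limma adjusted p = 0.00603). In Dnmt3b-deficient lymphomas H6pd fell by 1.33, a call lost without Dnmt3b-deficient replicate 2, normal replicate 1 or normal replicate 3. Nr3c2, the mineralocorticoid receptor, which also binds glucocorticoids, had 4.70, 4.60 and 4.90 in Dnmt3b-deficient lymphomas, against 6.02, 4.52 and 5.63 in wild-type lymphomas. Its levels were 4.11 and 3.998 in pre-tumor thymocytes and 3.60, 3.56 and 3.55 in normal thymocytes, so each of the 8 MYC samples lay above each normal sample. Nr3c2 rose by 1.82 in wild-type lymphomas (limma adjusted p = 0.00893, but 0.056 with only the 2 groups compared). The rise of 1.16 in Dnmt3b-deficient lymphomas (limma adjusted p = 0.0483) was kept under only 9 of 21 other settings.

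Fkbp5 is the immunophilin that lowers the receptor's hormone affinity and is itself induced by the hormone, a short feedback loop. Its levels were 9.71, 9.12 and 8.67 in Dnmt3b-deficient lymphomas, 8.15, 8.58 and 8.57 in wild-type lymphomas, 8.88 and 8.74 in pre-tumor thymocytes, and 8.88, 8.95 and 9.03 in normal thymocytes. All 3 Dnmt3b-deficient lymphomas stood above all 3 wild-type lymphomas, and all 3 wild-type lymphomas stood below every normal sample. Fkbp5 was the only 1 of the 9 genes whose 2 lymphoma groups did not overlap, beside 7.98% of all probe sets. The difference between the lymphomas was 0.73 with a SE of 0.25, a 1.66-fold higher level in Dnmt3b-deficient lymphomas. Its unadjusted p of 0.0194 became 0.722 after adjustment in limma, so it did not pass. Leaving out 1 sample at a time gave differences of 0.46 to 0.98. Against normal thymocytes the differences were 0.21 in Dnmt3b-deficient lymphomas, -0.52 in wild-type lymphomas and -0.14 in pre-tumor thymocytes, and none passed (limma adjusted p = 0.704, 0.204 and 0.893).

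Glcci1, named for its induction by glucocorticoids in thymocytes, showed the widest gap of the 9 genes. It had 5.52, 5.73 and 6.61 in Dnmt3b-deficient lymphomas, against 6.09, 6.61 and 5.67 in wild-type lymphomas. Pre-tumor thymocytes had 9.53 and 7.23, and normal thymocytes had 11.52, 11.41 and 11.49. The normal samples stood above every other sample, both pre-tumor samples stood between them and the tumors, and the lymphoma groups overlapped. Against a normal mean of 11.47 ± 0.06 (SD, n = 3), the Dnmt3b-deficient lymphoma mean of 5.95 ± 0.58 (SD, n = 3) was 46.0-fold lower and the wild-type lymphoma mean of 6.12 ± 0.47 (SD, n = 3) was 40.8-fold lower. The pre-tumor mean was 8.53-fold lower than normal. The pre-tumor samples lay 2.31 apart, so the pre-tumor difference of -3.09 became -4.25 without replicate 1 and -1.94 without replicate 2. Between Dnmt3b-deficient and wild-type lymphomas Glcci1 differed by -0.17 (95% interval -1.53 to 1.18, limma adjusted p = 1). Dnmt3b-deficient lymphomas were 5.39-fold lower than pre-tumor thymocytes, a difference of -2.43 with a SE of 0.65 that did not pass (unadjusted p = 0.00645, limma adjusted p = 0.279).

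The identity of this probe set is less sure than its values. RefSeq places Glcci1 on chromosome 6, yet 0 of the 10 named probe sets nearest by ID number lie on that chromosome and 9 of 10 lie on chromosome 17. For 6 of the other 8 genes, all 10 neighbours lay on the gene's own chromosome. A probe set annotated to both Umad1 and Glcci1 has 9 of 10 neighbours on chromosome 6. It had 5.39, 5.44 and 5.73 in Dnmt3b-deficient lymphomas, 5.19, 5.65 and 5.58 in wild-type lymphomas, 6.60 and 6.34 in pre-tumor thymocytes, and 7.51, 6.71 and 6.33 in normal thymocytes. All 6 lymphomas stood below all normal samples there too, but the gap was 2.51-fold in Dnmt3b-deficient and 2.60-fold in wild-type lymphomas, and pre-tumor and normal samples overlapped. What share of the Glcci1 signal comes from the Glcci1 transcript was not tested.

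**Figure D2:**
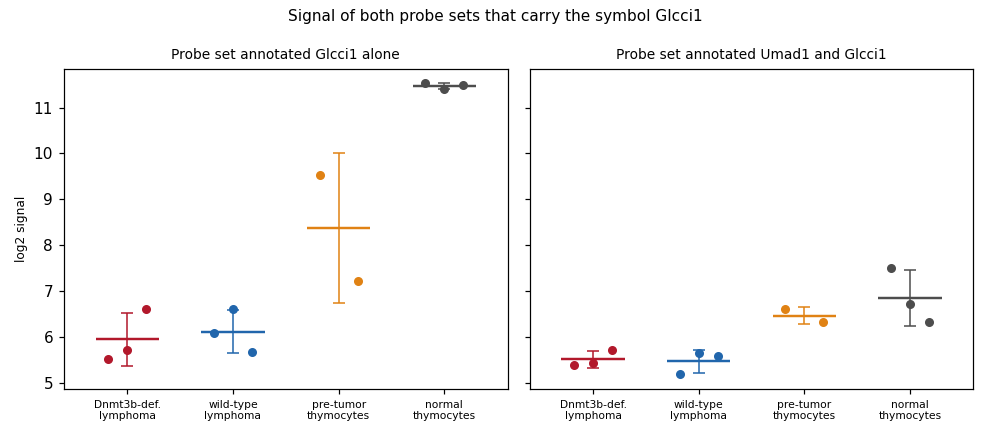
Deposited log2 levels (vertical axis) of the probe set annotated to Glcci1 alone and of the probe set annotated to Umad1 and Glcci1, with 1 point per array in the 4 groups. In the first, the normal samples sit between 11.41 and 11.52 and all lymphomas at or below 6.61; in the second, normal samples sit between 6.33 and 7.51 and all lymphomas at or below 5.73.

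The genes whose pattern over the 11 arrays was most like that of the Glcci1 probe set were found by the root mean square difference after each gene's own mean was removed, among 13694 candidate genes. Ephb6 came nearest at 0.67, then Plxnd1 at 0.71, Dntt at 0.74, Rag1 at 0.76 and Abi3 at 0.82, where the SD of Glcci1 itself over the arrays was 2.52. Dntt, which adds bases at receptor junctions, and Rag1, which cuts them, are double-positive stage genes. Rag1 had 3.95, 6.01 and 5.997 in Dnmt3b-deficient lymphomas, 6.18, 5.99 and 3.58 in wild-type lymphomas, 9.61 and 7.77 in pre-tumor thymocytes, and 11.09, 11.16 and 11.45 in normal thymocytes. As with Glcci1, pre-tumor replicate 1 lay nearer to normal than replicate 2. Rag1 was picked by its likeness to Glcci1 on these same arrays, so this shared order is no separate result. The mean level of the 13 double-positive genes was 6.47 to 6.88 in Dnmt3b-deficient lymphomas, 6.01 to 6.54 in wild-type lymphomas, 8.29 and 7.49 in pre-tumor replicates 1 and 2, and 9.27 to 9.56 in normal thymocytes. The part of this stage shift in the Glcci1 values was not tested.

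The start of Glcci1 is shown because it is the most CG-rich of the 17 RefSeq windows found for these genes, CG being the dinucleotide that Dnmt3b methylates. Methylation was not analysed here. The 300 bases run from 250 before to 50 after the annotated start, read 5′ to 3′ (RefSeq, GRCm38.p6, chr6:8509350-8509649, + strand).
Glcci1 window 1: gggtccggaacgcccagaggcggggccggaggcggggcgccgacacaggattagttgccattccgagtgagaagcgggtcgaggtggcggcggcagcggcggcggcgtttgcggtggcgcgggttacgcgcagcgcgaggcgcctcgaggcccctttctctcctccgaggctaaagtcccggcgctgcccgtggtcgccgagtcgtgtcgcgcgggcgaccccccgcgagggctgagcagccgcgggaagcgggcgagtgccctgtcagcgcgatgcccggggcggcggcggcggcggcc
It holds 50 CG dinucleotides, against a median of 7 in all 32851 such windows, and 99.1% of those windows hold fewer. It has no match to the full element (AGAACA and TGTTCT with 3 bases between them), to the loose pair (GNACA and TGTNC with 3 bases between them), to AGAACA alone on either strand, or to the E-box CACGTG.

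Among the 8 genes tested against normal thymocytes, Txnip was the one that fell in all 3 comparisons. Its protein binds thioredoxin and holds back glucose uptake, and it is a glucocorticoid-induced gene of lymphoid cells. Levels were 9.13, 8.47 and 8.95 in Dnmt3b-deficient lymphomas, 9.05, 9.22 and 8.50 in wild-type lymphomas, 8.97 and 8.52 in pre-tumor thymocytes, and 10.36, 10.60 and 10.83 in normal thymocytes. The highest of the 8 MYC samples was still below the lowest normal sample, while the MYC groups overlapped one another. Txnip was 3.36-fold lower in Dnmt3b-deficient lymphomas (difference -1.75, SE 0.26, limma adjusted p = 0.00312) and 3.20-fold lower in wild-type lymphomas (difference -1.68, SE 0.26, limma adjusted p = 0.00413). In pre-tumor thymocytes it was 3.62-fold lower (difference -1.85, SE 0.29, limma adjusted p = 0.00566). Without pre-tumor replicate 2 that last difference was -1.62 and missed the threshold, with a limma adjusted p of 0.0535. Both lymphoma calls held under all 21 other settings. Dnmt3b-deficient lymphomas differed from wild-type lymphomas by -0.07 (95% interval -0.67 to 0.53) and from pre-tumor thymocytes by 0.11 (95% interval -0.56 to 0.77).

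Of 12 measured regulators and partners of Txnip, 4 passed in each comparison with normal thymocytes, 3 up and 1 down. Of all probe sets 20.2% passed in Dnmt3b-deficient lymphomas, 19.9% in wild-type lymphomas and 19.6% in pre-tumor thymocytes. Mlx, the partner that lets MondoA and ChREBP bind the Txnip promoter, fell by 0.86 in Dnmt3b-deficient lymphomas, by 0.74 in wild-type lymphomas and by 0.87 in pre-tumor thymocytes (limma adjusted p = 0.000605, 0.00116 and 0.00167). Hk2, the hexokinase that makes the sugar phosphate MondoA senses, rose by 1.23 in both lymphoma groups and by 1.02 in pre-tumor thymocytes, where the call was lost without replicate 2 (limma adjusted p = 0.0865). The thioredoxin reductases rose as well: Txnrd2 rose by 1.06 in Dnmt3b-deficient and by 0.85 in wild-type lymphomas, and Txnrd1 rose by 0.71 and 0.52 in these groups. The genes most like Txnip over the 11 arrays were Mprip at 0.18, Prex1 at 0.22 and then Wdtc1, Mturn and Cd1d1 at 0.23 each, where the SD of Txnip over the arrays was 0.86. Cd1d1 is also among the 13 double-positive genes above. Without pre-tumor replicate 2, 1 of the 12 regulators and partners passed in pre-tumor thymocytes.

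The start of Txnip is printed because the gene fell and because its window holds a match to the loose pair, shown in capitals (RefSeq, GRCm38.p6, chr3:96557707-96558006, + strand).
Txnip window 1: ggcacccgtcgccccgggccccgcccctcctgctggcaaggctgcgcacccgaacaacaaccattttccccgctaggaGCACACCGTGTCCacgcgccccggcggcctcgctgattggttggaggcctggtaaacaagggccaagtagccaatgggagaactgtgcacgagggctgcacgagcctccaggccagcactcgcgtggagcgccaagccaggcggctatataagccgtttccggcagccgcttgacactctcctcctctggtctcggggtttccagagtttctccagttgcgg
The match lies 172 bases before the start, and 0.475% of all windows hold one. A match is a run of letters, not a measured binding site. The window has 24 CG dinucleotides, no AGAACA on either strand and no E-box CACGTG.

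Klf9 was the gene that rose. It encodes a Krüppel-like factor that the receptor induces directly and that acts on further targets in turn. Klf9 had 5.71, 5.93 and 6.24 in Dnmt3b-deficient lymphomas, 5.42, 5.71 and 6.26 in wild-type lymphomas, 5.15 and 5.06 in pre-tumor thymocytes, and 4.57, 4.38 and 4.77 in normal thymocytes. The 4 groups stood in steps: every lymphoma lay above both pre-tumor samples, both of which lay above every normal sample, and the lymphoma groups overlapped. Klf9 was 2.61-fold higher in Dnmt3b-deficient lymphomas (difference 1.39, SE 0.23, limma adjusted p = 0.00517) and 2.33-fold higher in wild-type lymphomas (difference 1.22, SE 0.23, limma adjusted p = 0.00952) than in normal thymocytes. Both calls held under all 21 other settings. In pre-tumor thymocytes the difference of 0.53 (95% interval -0.07 to 1.13) did not pass, with a limma adjusted p of 0.212. Dnmt3b-deficient lymphomas lay 0.86 above pre-tumor thymocytes, which did not pass either (unadjusted p = 0.0115, limma adjusted p = 0.346), and 0.17 above wild-type lymphomas (95% interval -0.37 to 0.70). Nearest to Klf9 over the arrays were Gusb at 0.22, Fbxw8 and Slc37a4 at 0.23, and Tarbp1 and Cpt1a at 0.24, where the SD of Klf9 was 0.65.

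The start of Klf9 is printed beside that of Txnip because the genes moved in opposite directions against the same normal samples (RefSeq, GRCm38.p6, chr19:23140976-23141275, + strand).
Klf9 window 1: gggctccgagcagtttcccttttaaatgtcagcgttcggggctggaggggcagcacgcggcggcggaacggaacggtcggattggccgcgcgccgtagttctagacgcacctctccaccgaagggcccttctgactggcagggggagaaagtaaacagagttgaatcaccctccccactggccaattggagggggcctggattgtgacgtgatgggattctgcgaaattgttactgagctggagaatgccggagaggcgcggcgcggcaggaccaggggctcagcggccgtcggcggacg
It holds none of the 4 motifs searched for, so nothing is in capitals, and it has 28 CG dinucleotides.

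The remaining 5 response genes gave no call in any comparison. Tsc22d3, also known as GILZ, is a direct target of the receptor that binds and blocks AP-1 and NF-kB. Levels of Tsc22d3 were 6.86, 4.84 and 5.77 in Dnmt3b-deficient lymphomas, 4.80, 5.17 and 5.24 in wild-type lymphomas, 4.75 and 4.66 in pre-tumor thymocytes, and 5.92, 5.996 and 5.72 in normal thymocytes. Wild-type lymphomas and pre-tumor thymocytes lay wholly below normal thymocytes, while the Dnmt3b-deficient lymphomas spread over 2.03 units, on both sides of them. The difference from normal was -0.05 in Dnmt3b-deficient lymphomas, -0.81 in wild-type lymphomas and -1.17 in pre-tumor thymocytes, with limma adjusted p-values of 1, 0.280 and 0.156. The spread of the Dnmt3b-deficient lymphomas enters all of these, since the 4 groups share 1 estimate. With only the 2 groups compared, the adjusted p was 0.0318 for wild-type lymphomas and 0.0307 for pre-tumor thymocytes. It was 0.0307 again in pre-tumor thymocytes without Dnmt3b-deficient replicate 1 and 0.0460 without its replicate 2.

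Dusp1, the phosphatase that switches off p38 and JNK, answers both to glucocorticoids and, as an immediate early gene, to stress. It had 9.59, 7.73 and 7.73 in Dnmt3b-deficient lymphomas, 7.85, 8.66 and 8.23 in wild-type lymphomas, 7.80 and 7.85 in pre-tumor thymocytes, and 8.75, 9.05 and 9.10 in normal thymocytes. Only Dnmt3b-deficient replicate 1 stood above the normal samples, and the other 7 MYC samples stood below them. Differences from normal of -0.62 in Dnmt3b-deficient lymphomas, -0.72 in wild-type lymphomas and -1.14 in pre-tumor thymocytes did not pass (limma adjusted p = 0.501, 0.401 and 0.209). Without Dnmt3b-deficient replicate 1 the first was -1.24 and passed with a limma adjusted p of 0.0137, and the last passed with 0.0180. The pre-tumor difference passed too in a fit of the pre-tumor and normal samples alone, with 0.0401.

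Per1, a repressor of the circadian clock with a glucocorticoid-driven promoter, overlapped between all groups that were compared. It had 7.21, 6.32 and 6.44 in Dnmt3b-deficient lymphomas, 6.26, 6.80 and 6.82 in wild-type lymphomas, 6.68 and 6.51 in pre-tumor thymocytes, and 6.68, 7.07 and 6.66 in normal thymocytes. Its 5 differences lay between -0.21 and 0.06, and the smallest limma adjusted p was 0.778. Of 16 other clock genes measured, 2 rose and 2 fell in Dnmt3b-deficient lymphomas, and 1 rose and 2 fell in each of the wild-type lymphomas and pre-tumor thymocytes. These shares are close to the 20.2%, 19.9% and 19.6% of all probe sets that passed. Arntl, the activator of the clock, fell by 2.13 in Dnmt3b-deficient lymphomas and fell by 1.96 in wild-type lymphomas. In pre-tumor thymocytes Arntl fell by 1.58, a call lost without replicate 2 (limma adjusted p = 0.144). Cry1, a repressor that can also bind the glucocorticoid receptor, fell by 2.03, 2.07 and 1.49 in Dnmt3b-deficient lymphomas, wild-type lymphomas and pre-tumor thymocytes. Clock, the partner of Arntl, rose by 1.10, 1.03 and 1.44 in the same 3 groups. Ciart, a repressor of Clock and Arntl, rose by 1.11 in Dnmt3b-deficient lymphomas (limma adjusted p = 0.0498), a call kept under 8 of 21 other settings. The time of day at which mice were killed is not given in the labels.

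Sgk1, the kinase that protects ion channels and transporters from removal and phosphorylates Foxo3, had 7.44, 6.80 and 6.47 in Dnmt3b-deficient lymphomas, against 6.52, 8.14 and 6.07 in wild-type lymphomas. It had 6.41 and 6.31 in pre-tumor thymocytes and 6.35, 6.27 and 6.27 in normal thymocytes. The samples without tumors lay within 0.14 of one another, the tumors spread over 2.07 units, and all 3 Dnmt3b-deficient lymphomas stood above every normal sample. The difference from normal was 0.61 in each lymphoma group, and neither passed (limma adjusted p = 0.521 in Dnmt3b-deficient and 0.497 in wild-type lymphomas). In wild-type lymphomas the difference rests on replicate 2, and it was -0.0025 without it.

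The Sgk1 window is shown because it holds the only match among these genes to the full element, in capitals with the other matches (RefSeq, GRCm38.p6, chr10:21993640-21993939, + strand, 1 of 6 Sgk1 starts).
Sgk1 window 5: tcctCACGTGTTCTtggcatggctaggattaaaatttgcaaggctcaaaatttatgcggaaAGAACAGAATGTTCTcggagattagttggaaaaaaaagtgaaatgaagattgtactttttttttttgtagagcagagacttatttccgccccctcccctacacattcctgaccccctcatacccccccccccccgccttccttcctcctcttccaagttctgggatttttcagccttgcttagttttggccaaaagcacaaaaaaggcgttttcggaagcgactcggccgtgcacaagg
The full element starts 189 bases before the start, and only 3 windows of all 32851, or 0.00913%, hold one. An E-box CACGTG lies 246 bases before the start and overlaps a TGTTCT, and AGAACA on either strand is found in 19% of all windows. An E-box, held by 7.15% of all windows, was also found before Fkbp5 (169 bases), Per1 (166 bases) and Dusp1 (126 bases), and a TGTTCT 185 bases before the first Tsc22d3 start. Array levels do not tell which of the 6 Sgk1 starts was used.

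**Figure D3:**
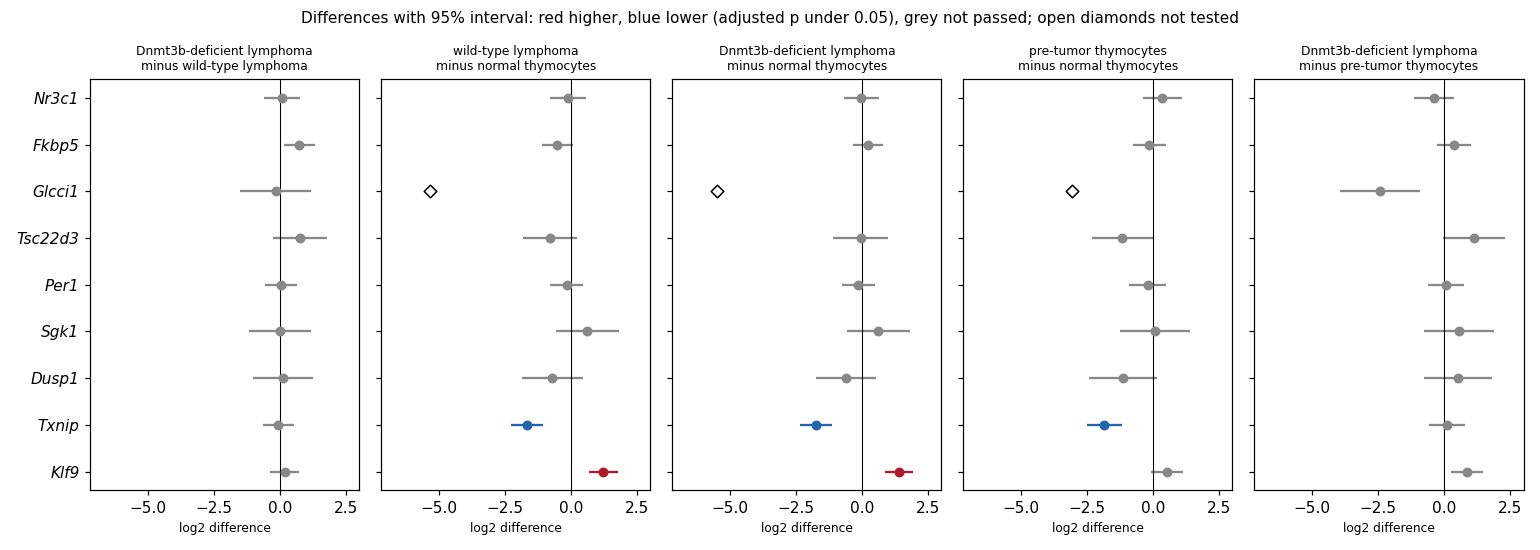
Differences between groups (horizontal axis, log2, group named first minus the other) for each of the 9 genes, 1 panel a comparison, with bars for the 95% interval. Red and blue mark genes that rose or fell at a limma adjusted p under 0.05, grey those that did not pass, and open diamonds mark Glcci1 against normal thymocytes, which was not tested. Txnip lies below 0 in all 3 comparisons with normal thymocytes and Klf9 above 0 in both lymphoma comparisons, and no gene is coloured in the comparisons without normal thymocytes.

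Set side by side, the comparisons with normal thymocytes share their normal samples, and 8 of the 9 genes were tested in each. In Dnmt3b-deficient lymphomas 2 of 8 passed, Txnip lower and Klf9 higher, where 20.2% of all probe sets passed. In wild-type lymphomas the same 2 genes passed, where 19.9% of all did, and in pre-tumor thymocytes 1 passed, where 19.6% did. These shares are near the background, so the count says nothing particular of the set. Samples of the 2 groups did not overlap for 3 of the 8 genes in Dnmt3b-deficient lymphomas (32.4% of all probe sets), for 5 of 8 in wild-type lymphomas (34.9%) and for 5 of 8 in pre-tumor thymocytes (44.7%). The direction was mixed: Nr3c1 and Per1 had differences no larger than 0.35, while Txnip was lower and Klf9 higher.

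Between Dnmt3b-deficient and wild-type lymphomas, which is where the study asks what loss of Dnmt3b does to the tumor, 0 of 9 genes passed in limma, and 1 of 9 (Fkbp5) had an unadjusted p under 0.05. Among all probe sets 0.00691% passed, or 2, and 6.3% had an unadjusted p under 0.05. The 95% intervals still allow sizeable differences, such as -0.29 to 1.79 for Tsc22d3 and -1.18 to 1.18 for Sgk1. Between Dnmt3b-deficient lymphomas and pre-tumor thymocytes of the same genotype, 0 of 9 passed in limma, where 0.0691% of all did. There 2 of 9, Glcci1 and Klf9, had an unadjusted p under 0.05, beside 9.43% of all, and the samples did not overlap for these 2, Tsc22d3 and Sgk1, or 4 of 9 beside 20.9% of all.

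Replicates of a group also differed among themselves. Dnmt3b-deficient replicate 1 had the highest of the 3 levels for 7 of the 9 genes, where it was highest for 29.9% of all probe sets. The exceptions were Glcci1 and Klf9, highest in replicate 3. Over all probe sets replicates 2 and 3 were highest for 22.2% and 25.5%. Probe sets whose highest level was tied count for no replicate but stay in the total. None of the 9 genes was tied, so these shares and those below are too low to set directly beside the 9 genes. SDs within Dnmt3b-deficient lymphomas were ranked among the 12676 probe sets with a mean above 5 over all 11 arrays. Of these, 98.8% had a smaller SD than Dusp1 and 98.6% a smaller SD than Tsc22d3, while 65.9% had a smaller SD than Klf9. In wild-type lymphomas replicate 2 was highest for 6 of the 9 genes (22% of all probe sets) and replicate 3 for the other 3 (29.1% of all). Such a lean was not limited to tumors. Pre-tumor replicate 1 was the higher of the 2 for 8 of the 9 genes, beside 38.1% of all probe sets, where replicate 2 was higher for 35.8%. Normal replicate 3 was highest for 5, beside 26.9% of all. The 19 immediate early genes, which respond within minutes to stimulation, averaged 6.45, 5.82 and 6.01 in Dnmt3b-deficient replicates 1 to 3 and 6.43, 6.64 and 6.26 in wild-type replicates 1 to 3. So the same replicate was highest in that list and in most of the 9 genes in each lymphoma group, and its part in these levels was not tested. The 10 macrophage markers averaged 4.44, 5.21 and 4.38 and the 10 neutrophil markers 3.97, 5.71 and 4.18 in Dnmt3b-deficient replicates 1 to 3, highest in replicate 2. In wild-type replicates 1 to 3 the macrophage markers averaged 5.89, 6.26 and 4.66, highest in replicate 2, as were 6 of the 9 genes. The neutrophil markers averaged 6.15, 5.94 and 4.05 there, highest in replicate 1. The 11 T cell markers averaged 7.88, 8.26 and 8.52 in Dnmt3b-deficient replicates 1 to 3, lowest in replicate 1. They averaged 8.62, 8.59 and 8.86 in wild-type replicates 1 to 3. The part of these cell types in the levels of the 9 genes was not tested.

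**Figure D4:**
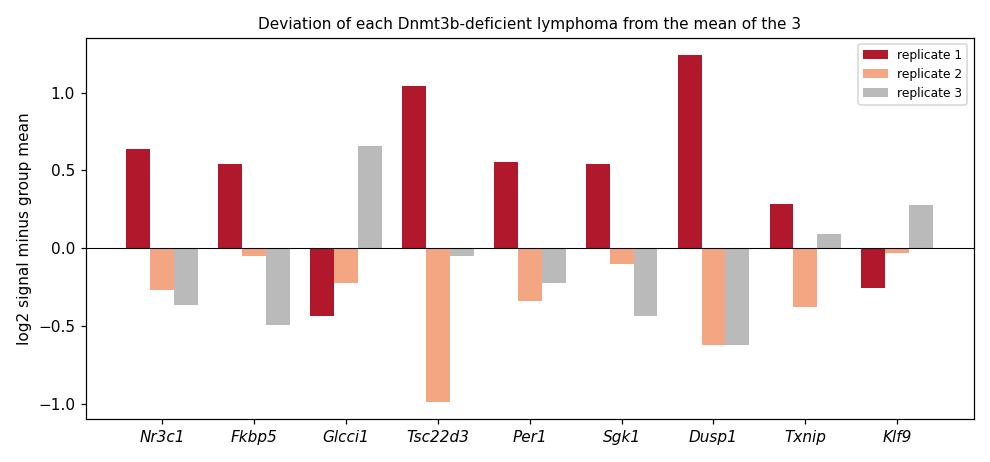
Deviation of each Dnmt3b-deficient lymphoma from the mean of its group (vertical axis, log2) for each of the 9 genes, with 1 bar per replicate. Replicate 1 gives the highest bar for 7 genes, most of all for Dusp1 and Tsc22d3, and replicate 3 for Glcci1 and Klf9.

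Between members, the root mean square difference over the 11 arrays was smallest for Fkbp5 and Per1, at 0.31, where their SDs were 0.39 and 0.29. For Tsc22d3 and Dusp1, with wider SDs of 0.69 and 0.66, it was 0.38. The genes most like Tsc22d3 were Ddit4, Herpud1 and Pfkm at 0.29 each, Prcd at 0.32 and Tjp3 at 0.33. Ddit4, a stress and glucocorticoid-induced brake on mTOR that is also in the list of other response genes, had 8.79, 7.01 and 7.90 in Dnmt3b-deficient lymphomas, against 7.53, 7.85 and 7.87 in wild-type lymphomas. Its levels were 6.78 and 6.60 in pre-tumor thymocytes and 7.96, 8.24 and 8.16 in normal thymocytes. Like Tsc22d3, it was lowest in pre-tumor thymocytes and highest in Dnmt3b-deficient replicate 1, and it passed in no comparison. The shared low and high samples follow from its choice by likeness on these arrays and are no separate result. For the other genes the nearest were Majin for Nr3c1 at 0.19, Dpysl4 for Fkbp5 at 0.13, Gtf2a1l for Per1 at 0.12, Anxa4 for Sgk1 at 0.26 and H3c4 for Dusp1 at 0.30.

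A wider list of 34 other glucocorticoid response genes leaned towards lower levels. It was drawn up from general knowledge, as were the other lists, with earlier results of these data known. In Dnmt3b-deficient lymphomas 2 rose and 10 fell, in wild-type lymphomas 2 rose and 11 fell, and in pre-tumor thymocytes 2 rose and 9 fell, with medians of -0.29, -0.33 and -0.43. Over all probe sets the medians were 0, 0 and -0.02, and 20.2%, 19.9% and 19.6% passed, in either direction. Without probe sets at the floor on every array, the medians were -0.02, -0.05 and -0.09. As the share is not split by direction, whether the lean is particular to this list was not tested. Mt1, a metallothionein induced by glucocorticoids and by metals, rose by 5.44 in Dnmt3b-deficient lymphomas, by 4.26 in wild-type lymphomas and by 5.17 in pre-tumor thymocytes (limma adjusted p = 0.000149, 0.000437 and 0.000921). Mt2, its neighbour in function, rose by 3.69 in Dnmt3b-deficient lymphomas (limma adjusted p = 0.0162, but 0.0602 without normal replicate 2) and rose by 3.72 in pre-tumor thymocytes (limma adjusted p = 0.0259, kept under 16 of 21 other settings). Rhob, a small GTPase, rose by 2.75 in wild-type lymphomas (limma adjusted p = 0.0485), a call kept under 7 of 21 other settings. Bcl6, a transcriptional repressor of lymphoid cells, fell by 4.02, 3.42 and 2.76 in the same 3 groups, and the last call was lost with only the 2 groups compared (limma adjusted p = 0.0594). Cdkn1b, the cell-cycle inhibitor p27, fell by 2.27 in Dnmt3b-deficient lymphomas, by 1.75 in wild-type lymphomas and by 1.41 in pre-tumor thymocytes. Pik3ip1, an inhibitor of PI3K, fell by 2.13, 2.37 and 2.12 in these groups. Its Dnmt3b-deficient call was lost without Dnmt3b-deficient replicate 2 (limma adjusted p = 0.0502). Its pre-tumor call was lost without normal replicate 1, 2 or 3. Without pre-tumor replicate 2, the count in pre-tumor thymocytes dropped to 4.

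Relatives of the 9 genes mostly fell where they passed. Of 31 measured relatives, 1 rose and 11 fell in Dnmt3b-deficient lymphomas, 1 rose and 7 fell in wild-type lymphomas, and 3 rose and 8 fell in pre-tumor thymocytes. In either direction 20.2%, 19.9% and 19.6% of all probe sets passed in these groups. Whether the lean to falls is particular to the relatives was not tested. Fkbp3, a nuclear immunophilin related to Fkbp5, rose by 2.73, 2.79 and 3.34 in these groups, and the last call was lost with only the 2 groups compared (limma adjusted p = 0.0681). Dusp10, a p38 and JNK phosphatase like Dusp1, fell by 2.53, 1.85 and 1.70 (limma adjusted p = 0.000149, 0.000538 and 0.00153). Dusp6, the ERK phosphatase, fell by 2.96 in Dnmt3b-deficient lymphomas and fell by 2.61 in pre-tumor thymocytes, where the call was lost without replicate 2 (limma adjusted p = 0.0538). Tsc22d4, a relative of Tsc22d3, fell by 1.63 in Dnmt3b-deficient and by 1.83 in wild-type lymphomas. It fell by 1.18 in pre-tumor thymocytes, a call lost with only the 2 groups compared (limma adjusted p = 0.0991). Klf3, a relative of Klf9, fell by 2.58 in wild-type lymphomas. Its fall of 1.25 in Dnmt3b-deficient lymphomas (limma adjusted p = 0.0227) was lost with the replicate block (limma adjusted p = 0.0509), among other settings. Without pre-tumor replicate 2, 2 of the relatives passed in pre-tumor thymocytes.

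Immediate early genes, the company that Dusp1 keeps outside hormone signalling, gave 0 rises and 5 falls of 19 in Dnmt3b-deficient lymphomas, 2 rises and 6 falls in wild-type lymphomas, and 0 rises and 4 falls in pre-tumor thymocytes. The share of all probe sets that passed, in either direction, was 20.2%, 19.9% and 19.6% in these groups. Whether the lean to falls is particular to immediate early genes was not tested. Myc, read by its mouse probe set, fell by 3.28, 2.66 and 2.03 in these groups (limma adjusted p = 0.000266, 0.000728 and 0.0032), and what part of its signal the MYC transgene adds was not tested. Btg2, an anti-proliferative gene, fell by 2.71, 2.05 and 2.27 in these groups. Nr4a1, an orphan receptor induced by T cell receptor signals, fell by 1.55, 1.17 and 1.25 in them. Its wild-type call was lost with only the 2 groups compared (limma adjusted p = 0.0643). Its pre-tumor call was lost without normal replicate 2 (limma adjusted p = 0.0522). The count for wild-type lymphomas dropped to 4 or 5 without any 1 of 8 samples. Over all 16 lists, 83 of 223 genes passed in Dnmt3b-deficient lymphomas, 80 in wild-type lymphomas and 75 in pre-tumor thymocytes against normal thymocytes. These stand beside 20.2%, 19.9% and 19.6% of all probe sets, and the lists were chosen with earlier results of these data known. Between Dnmt3b-deficient and wild-type lymphomas, and between Dnmt3b-deficient lymphomas and pre-tumor thymocytes, 0 of 223 passed in limma. At an unadjusted p under 0.05 there were 29 and 37 of 223 in these 2 comparisons, beside 6.3% and 9.43% of all probe sets.

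**Figure D5:**
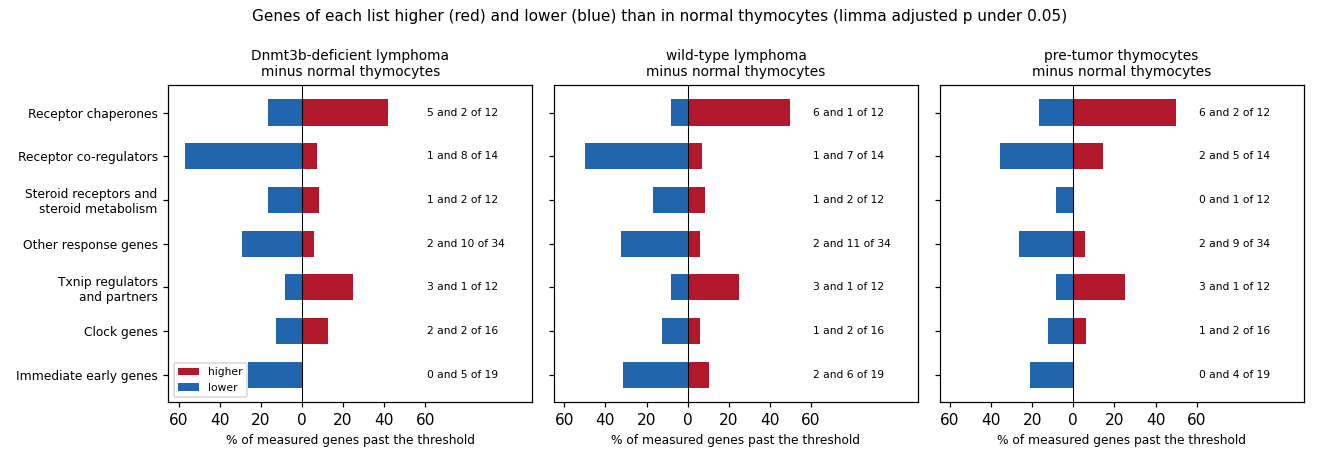
Share of the measured genes of each list (horizontal axis, percent) that rose or fell at a limma adjusted p under 0.05 against normal thymocytes, in Dnmt3b-deficient lymphomas, wild-type lymphomas and pre-tumor thymocytes. Receptor chaperones have more rises than falls in all 3 comparisons, and co-regulators and other response genes have more falls than rises. The shares of all probe sets that rose or fell are not shown.

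Markers of cells other than T cells were counted in the same 3 comparisons with normal thymocytes, in which 20.2%, 19.9% and 19.6% of all probe sets passed. Of 10 macrophage markers 3 fell in each of the 3 comparisons, and of 10 neutrophil markers 0 passed in limma, with 0 also at an unadjusted p under 0.05. Of 7 B cell markers 1 rose in pre-tumor thymocytes. Falls numbered 3, 1 and 5 of 9 dendritic markers in Dnmt3b-deficient lymphomas, wild-type lymphomas and pre-tumor thymocytes, 2, 3 and 2 of 13 stromal markers, and 1 of 4 erythroid markers in each. The mean level over the macrophage list was 4.38 to 5.21 in Dnmt3b-deficient lymphomas, 4.66 to 6.26 in wild-type lymphomas, 4.26 and 4.54 in pre-tumor thymocytes and 5.22 to 5.48 in normal thymocytes. Over the neutrophil list it was 3.97 to 5.71 in Dnmt3b-deficient and 4.05 to 6.15 in wild-type lymphomas. It was 3.92 and 3.89 in pre-tumor thymocytes and 4.62 to 5.07 in normal thymocytes. Though none passed, all 10 neutrophil markers were higher than normal in wild-type lymphomas and all 10 lower in pre-tumor thymocytes. In Dnmt3b-deficient lymphomas 3 were higher and 7 lower. Adgre1, a defining macrophage marker, was at the floor on 2 of 3 Dnmt3b-deficient, 1 of 3 wild-type, 2 of 2 pre-tumor and 2 of 3 normal arrays. Their part in the fall of Txnip and the rise of Klf9 was not tested.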

How the data were processed

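RNA of 11 thymus samples was measured on Affymetrix arrays. The deposited values are log2 expression levels, made by the authors with Partek and RMA per the submitters' processing notes, which give no version or order of steps. The genome build was not given in the sources used here. From the values, the table has a floor at 3.322, the log2 of 10, and 23.6% to 25.7% of the values of each array lie on it. Arrays have no read depth, so their number limits the precision.

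Of 35512 probe sets, 6573 with the lowest IDs and no gene were left out as probable controls, which left 28939. Genes were named from the platform annotation, and probe sets with several symbols were not used except where stated. All 11 arrays entered 1 linear model in limma 3.58.1 (lmFit and eBayes) in R 4.3.3, with a mean for each group, and with 7 residual and 0.46 prior degrees of freedom, and p-values were adjusted by Benjamini-Hochberg over all 28939 probe sets. The procedure was tested on simulated data. SEs and 95% intervals come from the same fit.

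The 9 genes and the 16 gene lists were chosen with earlier results of these data known. Every one of the 9 genes was named in every comparison. From each list up to 4 genes past the threshold in a comparison were named, largest difference first, with 1 probe set a gene. Some of these list genes were also given in other comparisons in which they passed. Marker genes, Dnmt3b and likeness were described outside that rule. Genes were ranked by likeness to each of the 9 by root mean square difference over the 11 arrays, leaving out genes with any value on the floor. Promoter windows are those of RefSeq, GRCm38.p6, 250 bases before to 50 after each start, with 17 windows for 8 of the 9 genes. No window was used for Nr3c1.

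There were 21 alternatives: 11 left out 1 sample each, and 10 changed the normalization, filters, moderation, samples, threshold or replicate block.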

Additional observations from a re-analysis of the deposited data

How the results depend on the processing

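The count of the 9 genes that passed was 0 between the lymphomas and 0 between Dnmt3b-deficient lymphomas and pre-tumor thymocytes under all 21 alternatives. In wild-type lymphomas against normal thymocytes it was 2, and 3 with only the 2 groups compared, where Tsc22d3 passed as well. In Dnmt3b-deficient lymphomas against normal it was 2, and 2 to 3 leaving out 1 sample at a time. In pre-tumor thymocytes against normal it was 1, but 3 with only the 2 groups compared, 2 with the replicate number as a block, and 0 to 3 leaving out 1 sample at a time. Whether the numbers pair the samples is not settled. Same-numbered samples' deviations correlated between -0.29 and 0.32, and differently numbered samples were not set beside them. With the block, Klf9 passed in pre-tumor thymocytes (difference 0.69, limma adjusted p = 0.0467). Differences that changed sign were all of genes that had not passed. Under quantile normalization Sgk1 was 0.0086 between the lymphomas and -0.042 in pre-tumor against normal, and -0.15 there with the block. Leaving out 1 sample at a time, the ranges between Dnmt3b-deficient and wild-type lymphomas were -0.24 to 0.26 for Nr3c1, -0.50 to 0.069 for Glcci1, -0.24 to 0.20 for Per1, -0.42 to 0.61 for Sgk1, -0.52 to 0.41 for Dusp1, -0.28 to 0.12 for Txnip and -0.024 to 0.40 for Klf9. Between Dnmt3b-deficient lymphomas and normal thymocytes they were -0.36 to 0.15 for Nr3c1, -0.060 to 0.46 for Fkbp5, -0.57 to 0.44 for Tsc22d3 and -0.42 to 0.024 for Per1. Between wild-type lymphomas and normal thymocytes they were -0.33 to 0.050 for Nr3c1, -0.27 to 0.0053 for Per1 and -0.0025 to 1.03 for Sgk1. Between Dnmt3b-deficient lymphomas and pre-tumor thymocytes they were -0.21 to 0.23 for Per1, -0.092 to 0.84 for Dusp1 and -0.12 to 0.33 for Txnip. The cause of these changes was not tested. Of all values of the 9 genes under the alternatives, 902 kept their direction and their side of the threshold, or for Glcci1 against normal their size within the spread. A further 32 changed sign, 8 passed where they had not, 1 no longer passed and 2 moved beyond the spread.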
